A study of Rattus norvegicus with 21 samples.

Results

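The microglial response to stroke was compared between early and later libraries of a rat study, transcript by transcript. Response here means the difference between microglia sorted after a temporary block of a brain artery (MCAO, middle cerebral artery occlusion, which models ischaemic stroke) and microglia sorted after a sham operation. The comparison used 14 of the 21 libraries, chosen by title: 3 of MCAO microglia and 3 of sham microglia in a set called the 24h set, and 4 of each in a set marked 7D in its titles. Macrophages sorted after MCAO made up the other libraries.

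All animals were adult rats of a strain labelled Winstar, and both cell types came from the operated side of the brain. In the MCAO groups a nylon suture blocked the artery for 90 min and was then withdrawn, while sham animals had the carotid artery exposed and its external branch tied. Microglia were gated as CD11b+ with low CD45 and macrophages as CD11b+ with high CD45. Several label fields disagree with the titles. The treatment field reads 24 h for the 7D libraries too and names a PBS injection for the shams, and the cell fraction field puts 24h MCAO microglia replicate 3 with the macrophages and 24h macrophage replicate 3 with the microglia. All 4 7D macrophage libraries have microglia as their source name and the microglial gate as their cell fraction. The titles were followed, so time and set cannot be told apart here.

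Microglia are the resident macrophages of the brain. After ischaemia they leave their surveying state, take up debris and dying cells, release cytokines and divide, and over the following days this state gives way to clearance and repair. Blood-derived macrophages enter the injured tissue in the same period and share many surface markers with activated microglia, so a gate on CD45 separates the 2 cell types by degree. The deposited files identify transcripts by Ensembl number without gene names, and the reference tables used here matched 0 of the 30404. Microglial and other cell type markers could therefore not be checked, and the results below describe groups of transcripts and 4 numbered ones.

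Total expected counts were 6923630 to 14333865 per library, with the 7D set deeper, and 15993 to 17351 transcripts had a count above 0. Mean fragment length (transcript length minus effective length) ran from 158.2 to 169.8 nt across the 24h libraries of MCAO and sham microglia, and from 177.3 to 188.0 nt across the 7D ones. One library stood apart: 7D sham replicate 3 differed from the mean of the other 7D shams by a root mean square of 0.962 in log2 CPM (expected counts scaled to library size with TMM factors), against 0.700 to 0.728 for the other 3. Results are therefore given with and without it.

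The difference between the responses was measured as an interaction, the 7D log2 fold change (MCAO over sham) minus the 24h one. Of 14252 transcripts tested, 310 had a different response (2.18%, edgeR quasi-likelihood test, Benjamini-Hochberg adjusted p under 0.05, the threshold for every call below). Among them the 7D response was the more positive in 67 (0.470%) and the more negative in 243 (1.71%), and 190 differed at least 2-fold. The median size of the interaction was 1.44 on the log2 scale over the called transcripts and 0.26 over all tested. A response that did not pass the test was not shown to be equal: of the 13942 transcripts not called, 8022 had a 95% interval of the interaction inside 1 log2 unit on either side of 0.

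Without 7D sham replicate 3 the number called was 648 of 14198 (4.56%), of which 310 (2.18%) were more positive and 338 (2.38%) more negative. The 2 lists shared 302 transcripts, 97.4% of the first and 46.6% of the second, and these had the same sign in both. The 346 transcripts called only without that library were 243 more positive and 103 more negative ones. Their responses differed less, with a median size of 0.59, and their adjusted p with all libraries ranged from 0.050 to 0.85. For these transcripts the median SD among the 7D shams was 0.26 log2 CPM with replicate 3 and 0.093 without it, and for the 302 shared ones it was 0.24 and 0.18. Over all 14252 tested it was 0.27 and 0.15. A small SD without replicate 3 follows in part from how the 346 were selected. Of the 24h libraries, leaving out MCAO microglia replicate 1, 2 or 3 gave 206, 321 and 253 calls. Leaving out 24h sham replicate 1, 2 or 3 gave 199, 211 and 213. When the 24h groups followed the cell fraction field 86 were called.

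**Figure D1:**
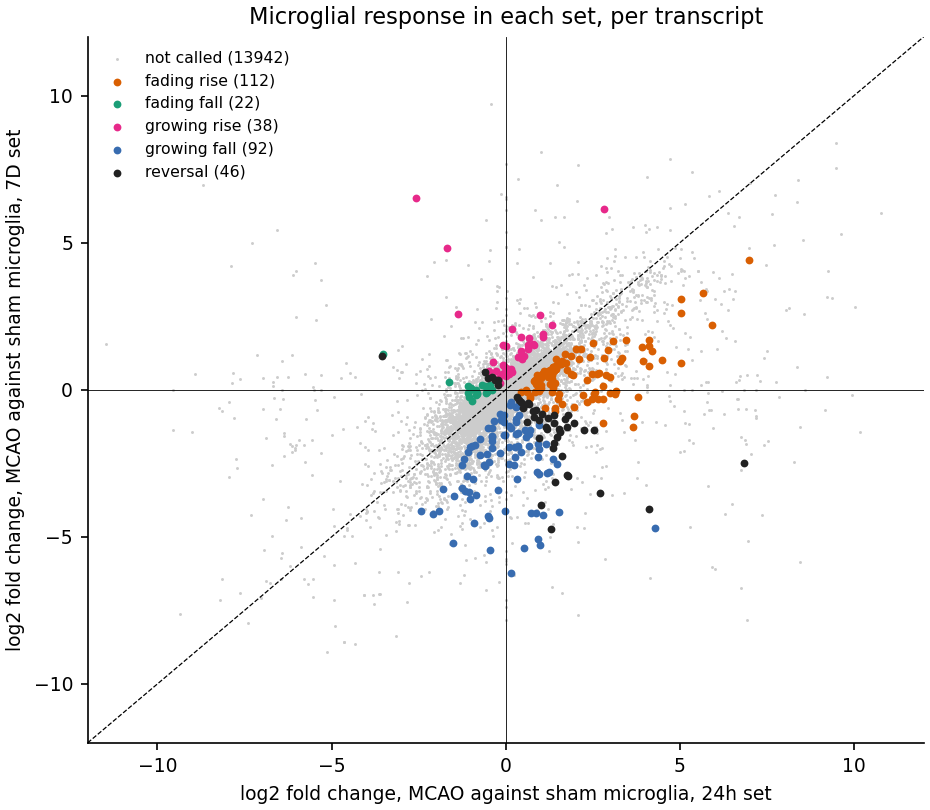
Each point is a transcript, with its log2 fold change of MCAO over sham microglia in the 24h set on the x axis and in the 7D set on the y axis; the dashed line marks equal responses. The 112 fading rises lie below the line at the right, and the 92 growing falls and most of the 46 reversals lie below the line where the 7D fold change is negative.

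The 310 transcripts were sorted by how the response changed, using the log2 fold changes and calls in each set. A response reversed where it was called in both sets with opposite signs. Of the rest, it faded where it was called in the 24h set and smaller in size in the 7D set, and grew where it was called in the 7D set and larger in size there. By this rule 112 were fading rises, 22 fading falls, 38 growing rises, 92 growing falls and 46 reversals. The levels of each class in the microglia and sham libraries follow from the rule and are given as a description. The interaction is also the difference between the sets in MCAO microglia minus that in shams. The directions in which either arm was called between the sets therefore follow largely from the selection. Shares over all tested are printed beside such counts for scale only. Without 7D sham replicate 3 the counts were 155, 110, 163, 142 and 78 in the same order (7D response called in 51.9% of transcripts there), so fading falls and growing rises were the classes with the largest relative gain.

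Responses called in both sets with the same direction were far more numerous, at 4356 transcripts (24h response called in 39.4% and 7D response in 48.2% of all tested), of which 106 (2.43%) also differed by the interaction. Of the 2438 shared rises, 1589 (65.2%) were larger in the 24h set, with a median log2 fold change of 0.89 there and 0.76 in the 7D set. Shared falls were more even, since 1047 of 1918 (54.6%) were larger in the 24h set, with medians of -0.80 and -0.76. These sizes depend on selection by calls. Of all responses called in the 24h set, 69.4% were smaller or of opposite sign in the 7D set. Of those called in the 7D set, 60.4% were smaller or of opposite sign in the 24h set. The median interaction over all tested was -0.033 with all libraries and 0.013 without 7D sham replicate 3, and the shared responses were not recounted without it.

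Fading rises numbered 112 with all libraries, more than any other class, but 155 against 163 growing rises without 7D sham replicate 3. Relative to the shams of the same set, their median level in MCAO microglia was 1.69, 1.47 and 1.53 log2 units in 24h replicates 1 to 3, and 0.60, 0.55, 0.59 and 0.58 in 7D replicates 1 to 4. The microglia of the 7D set thus stood below those of the 24h set in each library, while the medians of the 7D shams ran from -0.09 to 0.22, with replicate 3 the highest. The rise was still called in the 7D set for 69 of the 112 (24.1% of all tested were called higher there and 48.2% in either direction). The median log2 fold change of the 69 went from 1.48 at 24h to 0.78 at 7D. In the other 43 the 7D difference did not pass the test, and across the class 29 had a 7D estimate of opposite sign. In bulk libraries such as these, fewer cells of a kind and less RNA per cell cannot be told apart.

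Set against the 24h shams, levels differed between the sets in both arms. The 7D shams lay 0.40, 0.42, 0.71 and 0.44 log2 units above the 24h shams at the median fading rise, and MCAO microglia went from a mean of 1.56 in the 24h set to 1.16 in the 7D set. MCAO microglia alone were called between the sets in 53 of the 112 transcripts, lower in 7D, and sham microglia alone in 40, higher in 7D. Both arms were called in 11 and neither in 8. Those directions follow largely from the selection for a more negative interaction. Over all 14252 transcripts, 14.8% were called between the sets in MCAO microglia (6.93% lower in 7D) and 2.71% in shams (1.67% higher in 7D), and those differences carry the set as well as the time.

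The 53 and the 40 also differed in length and level. The split rests on calls, and a small difference is called more readily in an abundant transcript. Level and the position of single 7D shams are therefore not independent of the split. The 40 whose shams alone were called were short and abundant, with a median transcript length of 920.5 nt and a median mean level of 8.50 log2 CPM. The 53 whose MCAO microglia alone were called had a median length of 1956 nt and a median of 5.33 log2 CPM, against 2050 nt and 4.20 log2 CPM over all tested. Of the 40, 22 were under 1000 nt (55.0%), against 9 of the 53 (17.0%) and 14.4% of all tested. Expected counts that were not whole in some library, which RSEM gives where reads are shared between transcripts, occurred in 22 of the 40 (55.0%), 14 of the 53 (26.4%) and 4416 of all 14252. Fragment length also moved with the comparison, since 24h MCAO microglia had shorter fragments (158.2 to 162.3 nt) than 24h shams (167.5 to 169.8 nt), while in the 7D set the ranges overlapped. With an offset for each transcript's effective length, 106 of the 112 were still called, and with an offset for a trend on length 109 were. Those counts were not divided into the 53 and the 40, and the part of fragment length in the split was not tested. The library that stands apart, 7D sham replicate 3, was the highest of the 4 7D shams in 32 of the 40 (80.0%), 22 of the 53 (41.5%) and 40.9% of all tested. Over the 40 its median lay 0.85 log2 units above the 24h shams, against 0.40, 0.41 and 0.51 for replicates 1, 2 and 4. Without it 37 of the 40 and 50 of the 53 were still called by the interaction, and its part in the sham difference was not tested. The split into 53 and 40 was made after the values were seen and was not tested.

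ENSRNOT00000013562, a transcript of 725 nt, had the largest interaction of the fading rises that met the rule for naming. It was at 12.3, 1.80 and 4.06 CPM in 24h MCAO microglia and at 0.670, 0.121 and 0.661 CPM (5, 1 and 5 expected counts) in the 24h shams. In the 7D set it was at 1.68, 1.10, 0.271 and 0.924 CPM in MCAO microglia and at 3.47, 3.06, 2.17 and 0.935 CPM in shams. MCAO lay above sham in each 24h library, while in the 7D set the groups overlapped. The log2 fold change was 3.64 ± 0.95 (SE) in the 24h set (edgeR adjusted p = 0.0052) and -1.26 ± 0.71 in the 7D set (edgeR adjusted p = 0.15), an interaction of -4.91 ± 1.19 (edgeR adjusted p = 0.035, range over alternatives 0.00053 to 0.36).

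That call ended with limma-voom (interaction -4.68, limma adjusted p = 0.36). It also ended without 24h MCAO microglia replicate 1 (interaction -3.85), without 24h sham replicate 1, 2 or 3 (-5.22, -4.43 and -5.20), without 7D MCAO microglia replicate 2, 3 or 4 (-4.96, -4.62 and -4.86) and without 7D sham replicate 1 or 2 (-4.69 and -4.77). Macrophages held more of ENSRNOT00000013562 than microglia, at 36.7 ± 19.7 CPM (SD, n = 3) in the 24h set and 7.30 ± 4.85 CPM (n = 4) in the 7D set.

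Fading falls numbered 22 with all libraries, fewer than any other class, but 110 against 78 reversals without 7D sham replicate 3. Their median level relative to the shams of the same set was -0.91, -0.79 and -0.65 log2 units in 24h MCAO microglia and -0.01, 0.00, -0.02 and 0.10 in 7D MCAO microglia. In 21 of the 22 the 7D difference did not pass the test, where 48.2% of all tested were called in either direction. MCAO microglia were called higher in 7D in 19 of the 22 (7.87% of all tested), and shams were called lower in 7D in 2 (1.04% of all tested).

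ENSRNOT00000060595, of 2415 nt, stood for this class. It was at 3.25, 4.23 and 3.94 CPM in 24h MCAO microglia, below the 13.9, 10.6 and 10.6 CPM of the 24h shams. In the 7D set MCAO microglia were at 11.1, 8.83, 18.1 and 16.6 CPM and shams at 8.76, 14.2, 11.4 and 11.4 CPM, so that the groups overlapped. Its log2 fold change went from -1.62 ± 0.29 (SE, edgeR adjusted p = 0.00026) to 0.25 ± 0.23 (edgeR adjusted p = 0.38). The interaction was 1.87 ± 0.37 (edgeR adjusted p = 0.0097, range over alternatives 0.00027 to 0.69), and it was 0.78 with the 24h groups of the cell fraction field, where the call ended. The call also ended with limma-voom (interaction 1.81, limma adjusted p = 0.068). Its sham levels in the 2 sets differed by less than their spread, at 11.7 ± 1.93 CPM (SD, n = 3) and 11.4 ± 2.22 CPM (n = 4).

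**Figure D2:**
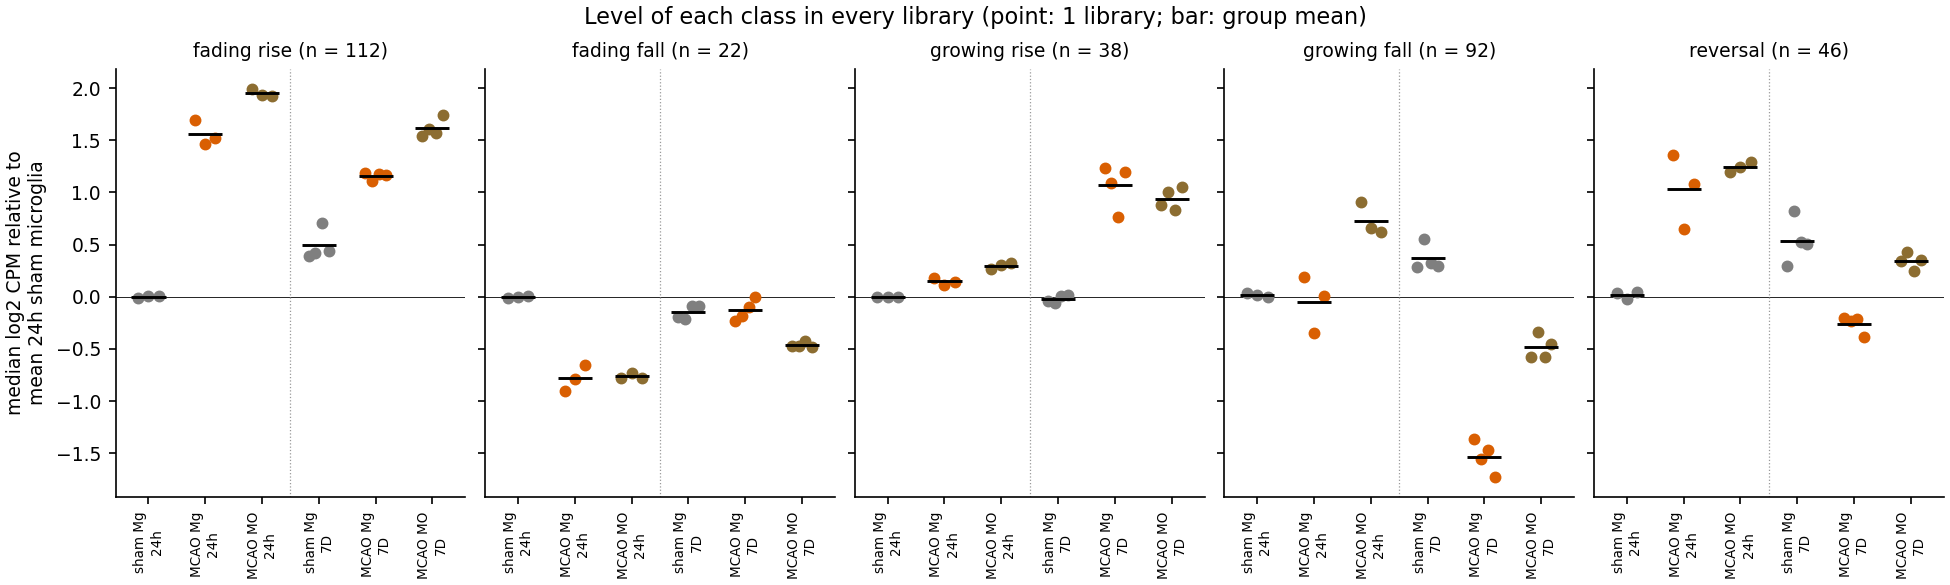
Each point is 1 library and each bar a group mean. The y axis gives the median log2 CPM of the transcripts of a class relative to the mean of the 24h shams, for microglia (Mg) and macrophages (MO). Sham microglia of the 7D set lie above those of the 24h set for fading rises (0.40 to 0.71) but close to them for growing rises (-0.06 to 0.02).

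In growing rises the median level relative to own shams was 0.18, 0.11 and 0.15 log2 units in 24h MCAO microglia and 1.13, 1.11, 0.99 and 1.28 in 7D MCAO microglia. In the 24h set 14 of the 38 were called, where 21.7% of all tested were called higher and 39.4% in either direction, with a median log2 fold change of 0.73 there, against 1.54 at 7D. MCAO microglia were called higher in 7D in 33 (7.87% of all tested), while shams were called lower in 7D in 2 (1.04% of all tested). Both directions follow in part from the selection, and both differences carry the set as well as the time.

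ENSRNOT00000012760, of 3474 nt, had the largest interaction among those that met the rule. It was at 36.6, 14.9 and 45.3 CPM in 24h MCAO microglia and at 7.24, 3.74 and 2.78 CPM in 24h shams. In the 7D set MCAO microglia held 230.4, 214.9, 179.5 and 112.6 CPM, against 2.45, 3.87, 1.09 and 2.63 CPM in shams. The 3 ranges of sham, 24h MCAO and 7D MCAO microglia did not overlap, with the 7D MCAO libraries highest. Named transcripts were chosen for separate ranges of 24h and 7D MCAO microglia, so that separation follows from the choice. The rise was 7.04-fold in the 24h set (log2 fold change 2.82 ± 0.46, SE, edgeR adjusted p = 0.00011) and 71.6-fold in the 7D set (6.16 ± 0.43). The interaction was 3.35 ± 0.63 (edgeR adjusted p = 0.0073, range over alternatives 3.4e-06 to 0.082). Without 24h sham replicate 1 the call ended (interaction 2.87, edgeR adjusted p = 0.054), and it also ended with the 24h groups of the cell fraction field (interaction 4.11) and with limma-voom (3.44, limma adjusted p = 0.063). Macrophages went the same way from a lower start, from 5.38 ± 1.67 CPM (SD, n = 3) in the 24h set to 62.5 ± 17.5 CPM (n = 4) in the 7D set.

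Growing falls had the larger changes of the 2 growing classes. Relative to own shams their median level was 0.19, -0.35 and 0.01 log2 units in 24h MCAO microglia, so the 24h libraries lay on both sides of 0. In 7D MCAO microglia it ran from -2.29 to -1.96, below 0 in each library. Of the 92, 70 were not called in the 24h set and 47 had a 24h estimate of opposite sign, while the 22 called in both went from a median of -1.06 to -2.74. Over all tested, 17.6% were called lower in the 24h set and 39.4% in either direction. At least 2-fold interactions made up 78 of the 92. MCAO microglia were called lower in 7D in 80 (6.93% of all tested) and shams called higher in 7D in 9 (1.67% of all tested).

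ENSRNOT00000076191, of 856 nt, was nearly absent from 7D MCAO microglia. Its levels there were 0.160, 0, 0.0904 and 0.0711 CPM (expected counts that sum to 4 when rounded, with a limit of 0.236 CPM for the library at 0, at 3 counts). The 7D shams held 5.84, 2.99, 2.17 and 3.14 CPM, or 179 expected counts, 44.9-fold more by summed counts (95% interval 17.2 to 166.5, exact binomial, counting error only). In the 24h set MCAO microglia were at 15.4, 1.06 and 5.02 CPM and shams at 4.83, 2.78 and 3.44 CPM, which overlapped (log2 fold change 0.98 ± 0.62, SE, edgeR adjusted p = 0.23). The interaction was -6.27 ± 1.22 (edgeR adjusted p = 0.0087, range over alternatives 4.3e-07 to 0.28), a value that depends on the prior count at these low levels, and -4.99 without 24h MCAO microglia replicate 1. The call ended with limma-voom (interaction -5.35, limma adjusted p = 0.28). In macrophages ENSRNOT00000076191 was far higher, at 123.2 ± 23.9 CPM (SD, n = 3) in the 24h set and 56.3 ± 24.3 CPM (n = 4) in the 7D set, and MCAO microglia replicate 1 was also the highest of the 24h microglia.

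**Figure D3:**
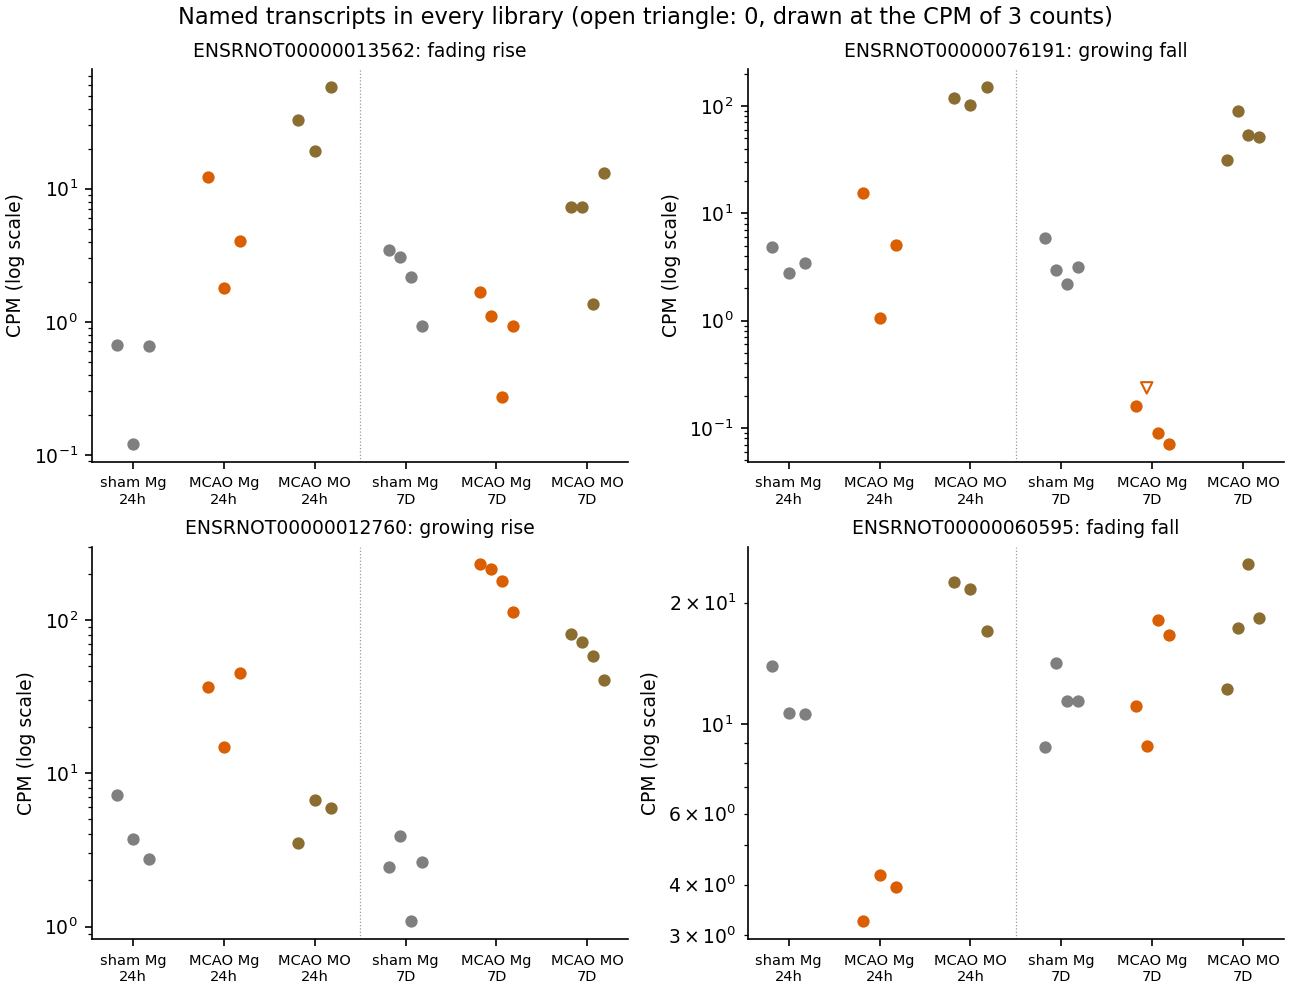
Each point is 1 library, with CPM on a log axis, for sham microglia, MCAO microglia (Mg) and MCAO macrophages (MO) of each set; the open triangle is a library at 0, drawn at the CPM of 3 counts. ENSRNOT00000012760 climbs from 14.9 to 45.3 CPM in 24h MCAO microglia to 112.6 to 230.4 CPM in 7D ones, while ENSRNOT00000076191 is under 0.2 CPM in the 3 7D MCAO microglia libraries that hold it.

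Reversals were mostly rises that became falls, in 39 of the 46. Among these 39 the median level relative to own shams was 1.44, 0.74 and 1.54 log2 units in 24h MCAO microglia and -0.90, -1.23, -1.05 and -1.21 in 7D MCAO microglia. Both arms entered: the median 7D sham library was 0.61 to 0.91 log2 units above the 24h shams, and 7D MCAO microglia were 0.27 to 0.44 units below them. MCAO microglia were called lower in 7D in 34 of the 39 (6.93% of all tested), and shams were called higher in 12 (1.67% of all tested). Both arms were called in 9, against 163 of all 14252. The other 7 reversals were falls that became rises, smaller at a median interaction of 0.82, against -2.65 for the 39. Without 7D sham replicate 3 there were 41 of the first kind and 37 of the second.

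**Figure D4:**
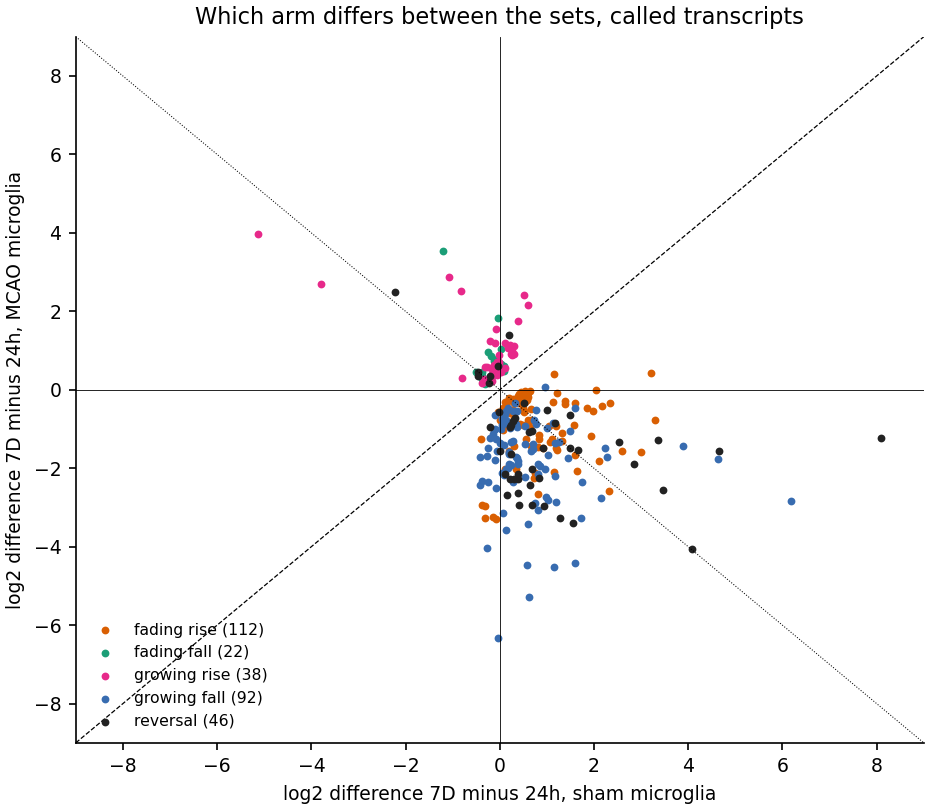
Each point is 1 of the 310 called transcripts, with the log2 difference between 7D and 24h sham microglia on the x axis and between 7D and 24h MCAO microglia on the y axis; the dashed line marks equal differences and the dotted line differences of equal size and opposite sign. Growing falls have a median of -1.65 on the y axis and 0.35 on the x axis, and fading rises medians of -0.53 and 0.52.

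Over all classes, MCAO microglia differed more between the sets than shams did in 216 of the 310 transcripts (69.7%), and shams differed more in 94. Over all tested transcripts MCAO microglia differed more in 8342 of 14252. For fading rises the numbers were 54 and 58, for growing falls 81 and 11, for growing rises 33 and 5, for fading falls 18 and 4, and for reversals 30 and 16. The share was 78.1% without 7D sham replicate 3 and 63.4% without 7D sham replicate 4.

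Macrophages offered a comparison from other libraries, since the estimate of their difference between 7D and 24h shares none with the estimate of the interaction. The calls were not separate, because the macrophage libraries were in the same fit and entered its count filter, normalization and spread. With the microglial and sham libraries alone 221 transcripts were called, and 197 of the 310 of the full fit were among them. Of the 243 transcripts with a more negative interaction, 142 were called lower in 7D macrophages and 24 higher, where 20.0% and 21.4% of all tested were called. Of the 67 more positive ones, 38 were called higher and 7 lower. By class, 56 of the 92 growing falls, 59 of the 112 fading rises and 27 of the 39 rises that became falls were lower in 7D macrophages, and 24 of the 38 growing rises were higher. Fading rises divided again: 40 of the 53 whose MCAO microglia alone were called were lower in 7D macrophages, against 8 of the 40 whose shams alone were called. These counts join time with set, and with the 24h groups of the cell fraction field 1924 transcripts in place of 5910 were called between the macrophage groups.

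Macrophages also held the highest group mean for many of the called transcripts. A macrophage group was the highest of the 6 groups for 90 of the 112 fading rises (80.4%), 24 of the 39 rises that became falls (61.5%) and 48 of the 92 growing falls (52.2%), against 43.1% of all tested. It was the highest for 3 of the 22 fading falls (13.6%). Growing rises stood at 39.5%, with 22 of the 38 highest in MCAO microglia. These shares follow in part from the class rule, which limits how often a sham group can be highest. Sham microglia were highest for 0 of the 112 fading rises and 13 of the 22 fading falls, against 5561 of all 14252. How much RNA of macrophages or of other cells the microglial gate held could not be measured without named markers, and its part in these differences was not tested.

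Leaving out each of the 14 libraries in turn gave between 199 and 648 called transcripts. Without 24h MCAO microglia replicate 1 there were 67 fading rises, 14 fading falls, 25 growing rises and 27 reversals, and without 24h sham replicate 1 there were 72 fading rises and 55 growing falls. Without 24h sham replicate 2 fading falls were 14, growing rises 25 and reversals 27, and without 24h sham replicate 3 there were 30 reversals. In each of these fits the called transcripts of the full set that could be tested kept the sign of their interaction.

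**Figure D5:**
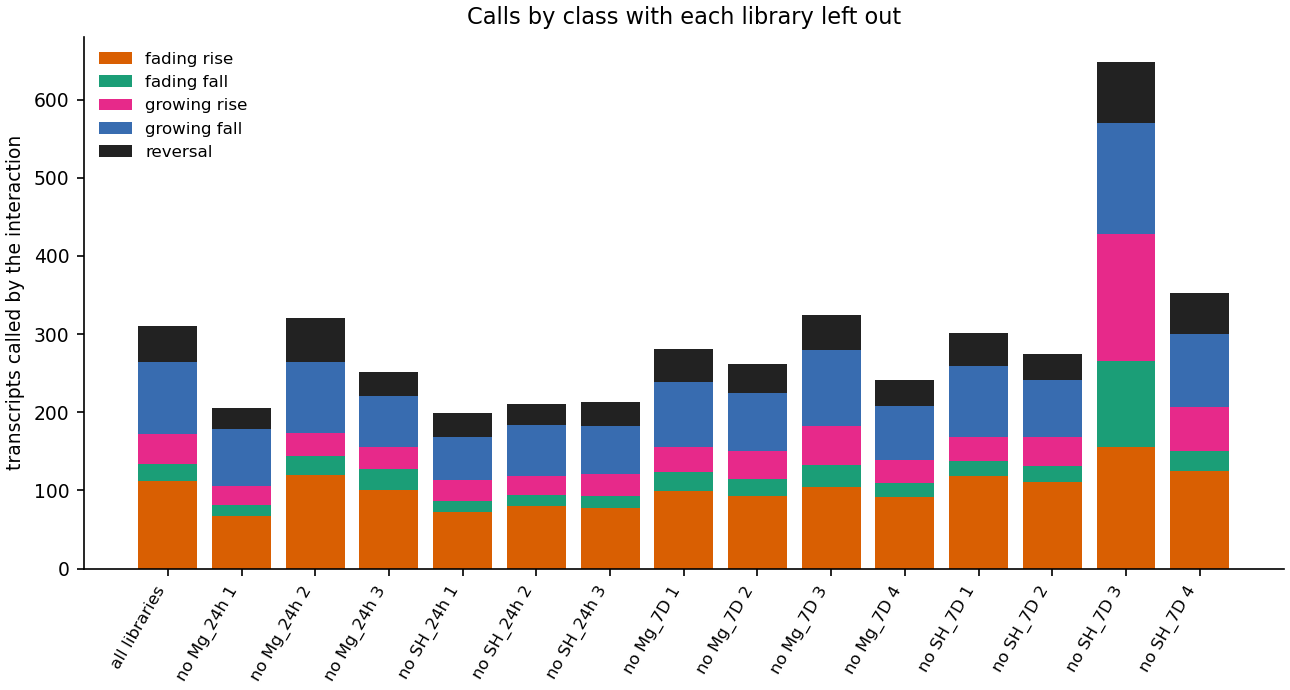
Each bar gives the number of transcripts called by the interaction, divided by class, with all libraries or with 1 library left out. The bar without 7D sham replicate 3 reaches 648, and the others lie between 199 and 352.

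Chi3l1, a secreted chitinase-like protein, and Nos2, the inducible nitric oxide synthase, are named in the files outside the numbered transcripts. Neither interaction was called by edgeR with all 21 libraries. Their interactions were -2.91 ± 0.95 (SE, edgeR adjusted p = 0.12, and -1.64 without 24h MCAO microglia replicate 1) and -5.23 ± 2.17 (edgeR adjusted p = 0.25). DESeq2 called Chi3l1 (interaction -2.90, DESeq2 adjusted p = 0.028) and did not call Nos2 (DESeq2 adjusted p = 0.088). The edgeR fit of microglial and sham libraries alone without 7D sham replicate 3 called Nos2 (interaction -5.52, edgeR adjusted p = 0.05 when rounded). In the 7D set both were called lower in MCAO than in sham microglia (Chi3l1 -2.29, edgeR adjusted p = 0.0087, Nos2 -4.01, edgeR adjusted p = 0.049). Nos2 had 7 summed counts in those MCAO libraries.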

How the data were processed

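The submitters' processing notes name bcl2fastq, TopHat2, RSEM and genome build rn5. Versions, settings and annotation release are not given in the sources used here. The authors deposited 1 file per library with RSEM expected counts, the estimated reads of each of 30404 Ensembl transcripts, with lengths in nt, per the file headers. The lines for Chi3l1 and Nos2 sit 2 columns to the right of the header and were read from there.

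Expected counts were rounded and tested in R 4.3.3 with edgeR 4.0.16 (quasi-likelihood F-test, TMM, filterByExpr at count 10 and total 15) on all 21 libraries with 1 term per group. Chi3l1 and Nos2 were added to the fit and adjusted with the transcripts. Adjusted p-values are Benjamini-Hochberg values. Standard errors, an approximation, are the size of the log2 fold change over the root of F. Log2 CPM used a prior count of 1. The test was checked on simulated data.

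Named transcripts were, for each fading or growing class, the one with the largest interaction among those called with and without 7D sham replicate 3, with mean log2 CPM not below 3 and separate ranges of 24h and 7D MCAO microglia. That mean was taken over all 21 libraries, so macrophages counted towards it. For ENSRNOT00000013562 (mean 3.06) and ENSRNOT00000076191 (4.94) the highest microglial group means were 6.05 and 7.17 CPM, against 36.7 and 123.2 CPM in 24h macrophages. Gene lists and cell type markers were not used because no names could be assigned. Classes, lists and members were chosen with earlier results of these data known. Labels call the replicates biological without naming animals, so p-values measure the spread between libraries. Every pair of libraries within a group differed by more than counting error (chi-square over its degrees of freedom 5.48 to 62.1). DESeq2 1.42.0 and limma 3.58.1 were alternatives.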

Additional observations from a re-analysis of the deposited data

Results flagged for a closer look

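The library labelled 7D sham replicate 3 lay apart from the other 7D shams in its root mean square deviation (0.962 log2 CPM). It was the only value to pass Dixon's 95% limit among 26 groups of 4 libraries looked at, where chance passes about 1 in 20. In a fit that weights libraries by their quality it received a weight of 0.159, the lowest of the 21.

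The responses of the 4 named transcripts differed between the sets by edgeR's interaction test, and none of the 4 was called with limma-voom (limma adjusted p = 0.36, 0.28, 0.063 and 0.068 in the order below). The differences were -4.91 for ENSRNOT00000013562, -6.27 for ENSRNOT00000076191, 3.35 for ENSRNOT00000012760 and 1.87 for ENSRNOT00000060595 on the log2 scale.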

How the results depend on the processing

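In each alternative the called transcripts that could be tested kept the sign of their interaction, and other normalizations, count filters and effective-length offsets left the total within 1.5 times of 310. Apart from the ranges with 1 library left out, values below are mostly those that moved further, and the cause was not tested unless fewer libraries are named. Leaving out 1 library gave 199 to 648 calls (42 to 310 more positive, 156 to 338 more negative), 67 to 155 fading rises, 14 to 110 fading falls, 25 to 163 growing rises, 55 to 142 growing falls and 27 to 78 reversals. The share of called transcripts in which MCAO microglia differed more than shams was 63.35% to 78.09%. The 24h response counted 4237 to 6258 calls, the 7D response 6028 to 7367 and the macrophage difference 5816 to 6516. Each of these stayed within 1.5 times of its count with all libraries.

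With the microglial and sham libraries alone there were 69 fading rises and 25 growing rises, and the share was 75.57%. DESeq2 called 688 (205 more positive, 483 more negative), with 245 fading rises, 98 fading falls, 95 growing rises and 186 growing falls. With limma-voom fading rises were 74, and the calls of the 4 named transcripts ended, also without 7D sham replicate 3 (limma adjusted p = 0.059 to 0.31 there). With quality weights those of ENSRNOT00000013562 and ENSRNOT00000076191 ended (limma adjusted p = 0.18 for each). Fading rises were not the most numerous class in every fit: growing falls outnumbered them with quality weights, with the microglial and sham libraries alone and without 24h MCAO microglia replicate 1. Without 7D sham replicate 3 growing falls also outnumbered fading rises with limma-voom (142 against 113). They did so too with the microglial and sham libraries alone without that replicate (129 against 127). With quality weights limma-voom called 786 (329 and 457), with 188 fading rises, 117 fading falls, 176 growing rises, 213 growing falls, 88 reversals and a share of 80.92%. With the 24h groups of the cell fraction field 86 were called (15 and 71), with 34 fading rises, 4 fading falls, 8 growing rises, 12 growing falls, 28 reversals and 1924 calls between macrophage groups. An offset for a length trend, chosen after seeing the data, gave 36 fading falls.

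A further 3 fits without 7D sham replicate 3 were chosen after seeing the data. With limma-voom 551 were called (261 more positive), with 90 fading falls, 128 growing rises, 142 growing falls, 78 reversals and a share of 82.21%. With DESeq2 1083 were called (426 and 657), with 309 fading rises, 180 fading falls, 214 growing rises, 284 growing falls, 88 reversals and a share of 75.35%. With the microglial and sham libraries alone 476 were called (179 more positive), with 60 fading falls, 95 growing rises and a share of 79.2%.

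A replicate block nested in set called 449 transcripts (135 more positive, 61 fading falls, 62 growing rises), of which 278 were among the 310. The numbers were not taken as pairs, since deviations of same-numbered libraries correlated at -0.0682 to 0.152. The best match had the same number for 7D replicates 1, 2 and 3 and for 24h replicate 2, but not for the others. Pairing was thus not shown to be absent. The 24h set has 3 libraries a group and fewer counts than the 7D set, which limits the precision of each interaction.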
